A study of Sus scrofa domesticus with 6 samples.

Results

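The insulin-like growth factor (IGF) system was followed in the mandibular condyle of miniature pig embryos through 10 gene names: the ligands IGF1 and IGF2, the receptors IGF1R and IGF2R, and the binding proteins IGFBP2 to IGFBP7. Each name was looked up in the gene names of the deposited table, and the row with the highest summed count was taken. Of the 10 names, 9 had a row among 25322; no row was named IGF2, which is not analysed here. The condyle, the lower jaw's side of the temporomandibular joint, was sampled at embryonic day 85 (E85, 3 libraries) and day 45 (E45, 3 libraries), an interval chosen by the study to follow ossification of its cartilage. No treatment or genotype separates the ages; the labels name the tissue as cartilage with chondrocytes and osteocytes as its source, and do not say whether each library came from its own embryo, so the p-values below speak for the spread among libraries and not for that among animals.

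IGFs are small secreted hormones related to insulin. They act through IGF1R, a receptor tyrosine kinase at the cell surface, whereas IGF2R, which is also the mannose 6-phosphate receptor, takes up IGF2 and lysosomal enzymes for delivery to lysosomes and carries no kinase. Secreted binding proteins hold IGFs in the matrix or the circulation and release them when proteases cleave them, and in human and mouse growth cartilage IGF signalling promotes the proliferation and enlargement of chondrocytes. The roles given below for single genes are background known mainly from human and mouse work.

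Total counts per library ran from 12546729 to 16559616. Levels of 1 gene in different libraries are given as CPM, read counts scaled to library size with TMM factors. Levels of different genes are compared only as the deposited FPKM, which divides by gene length. Ranks by CPM within a list served only to choose which genes to name. Fold changes are E85 over E45 from edgeR's quasi-likelihood test with 3 libraries per age, fitted to all 15022 genes that passed the count filter, and a gene was called at a Benjamini-Hochberg adjusted p under 0.05. The E85 libraries were unlike each other: E85 replicate 2 correlated with replicates 1 and 3 at a Spearman's rho across genes of 0.931 and 0.938, against 0.980 between replicates 1 and 3, and 0.975 to 0.984 among the E45 libraries. With each E45 library the rho of E85 replicate 2 was 0.939, so it was no closer to its own age. Summed CPM of 12 skeletal muscle fibre markers was 38608, 2547 and 32080 in E85 replicates 1, 2 and 3, against 4033 to 9093 in the E45 libraries. Cartilage identity also differed, as COL2A1, the main cartilage collagen, stood at 28.8, 1074 and 50.6 CPM in the E85 libraries, against 3733 to 4999 CPM at E45. This defining marker of the labelled tissue was therefore high in the E45 libraries and, among the E85 libraries, in replicate 2. In bulk tissue, fewer cells of a type and less RNA per cell cannot be told apart.

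Of the 9 genes, all of which passed the filter and were tested, IGFBP7 rose and IGFBP2 fell, and the other 7 did not pass. The 2 calls are 22.2% of the genes tested here, beside 6.56% of all genes called in either direction, made up of 3.90% higher and 2.66% lower at E85; with 9 genes the count is too small to set the group apart. The median log2 fold change of the 9 was 0.04, beside 0.02 for all genes tested, and their median absolute log2 fold change was 0.35, beside 0.33. Normalised levels of the ages did not overlap for 3 of the 9 (IGF2R, IGFBP2 and IGFBP7), a property of 35.0% of all genes tested. At an unadjusted p under 0.05 these same 3 genes passed, beside 29.1% of all genes. The plot of CPM by library shows the values that these statements rest on.

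**Figure D1:**
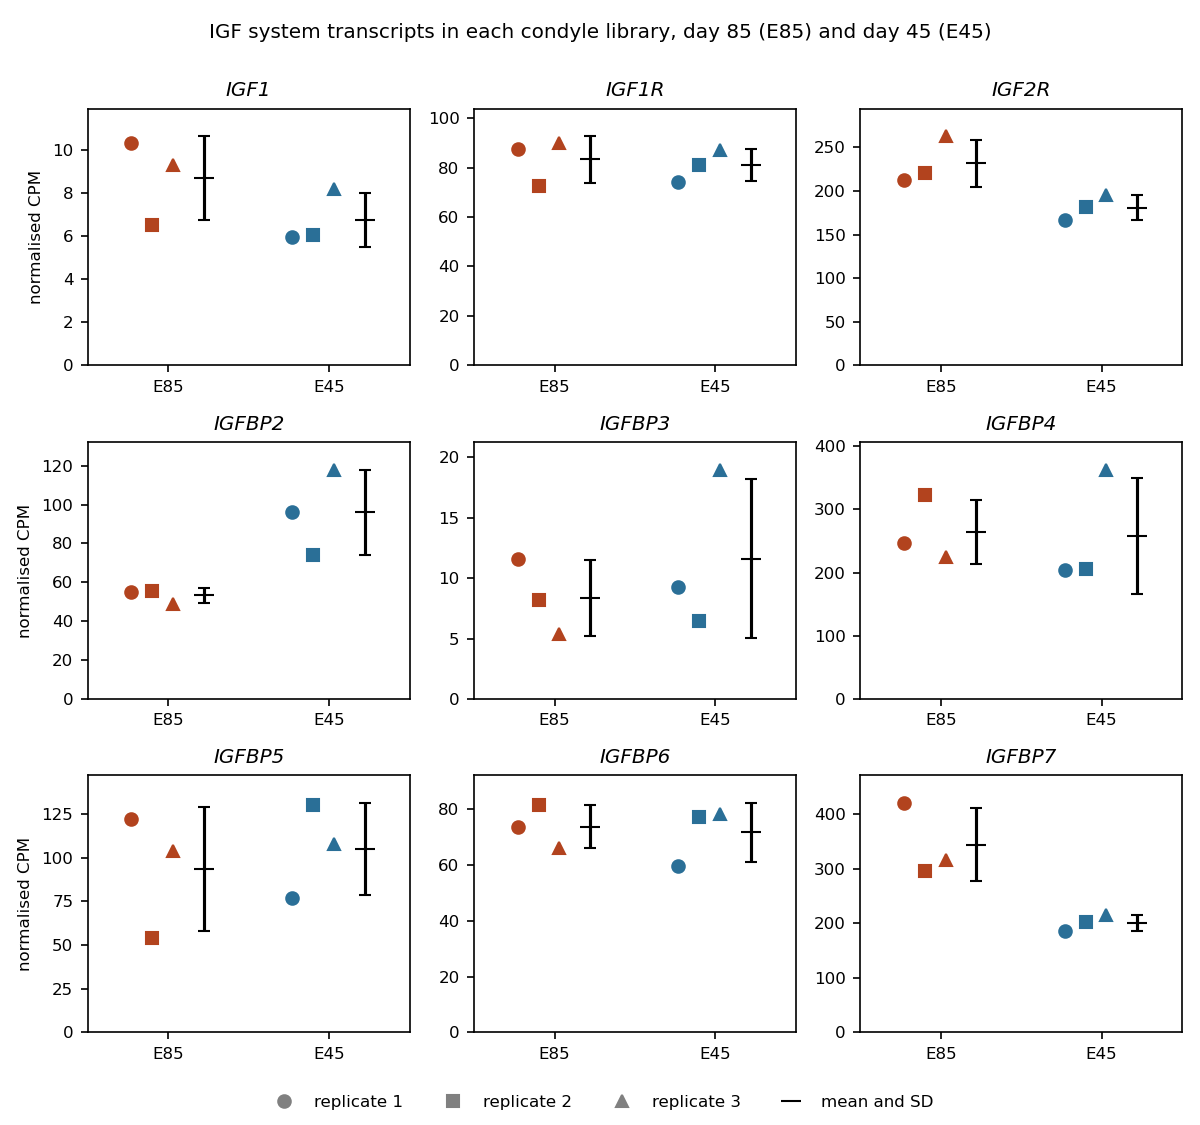
Normalised CPM (y axes, each starting at 0 with its own range) of the 9 genes in each library, E85 left of E45 in every panel; symbols mark the replicate number, and the black dash and bar give the mean and SD of 3 libraries. The E85 points lie above all E45 points for IGFBP7 and IGF2R and below them for IGFBP2, and the ages overlap in the other 6 panels.

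IGF1, the ligand through which growth hormone drives much of postnatal growth, was a scarce transcript. It had 133, 98 and 141 counts in E85 replicates 1, 2 and 3, against 97, 84 and 125 counts in the E45 libraries. Normalised, these were 10.3, 6.53 and 9.30 CPM at E85, against 5.94, 6.06 and 8.18 CPM at E45. The ages overlapped, because E85 replicate 2 lay below E45 replicate 3. The log2 fold change was 0.37 (95% interval -0.21 to 0.95) and did not pass (adjusted p = 0.347 by edgeR). The interval allows a level at E85 between 0.87 and 1.93 times that at E45. IGF1 is annotated on chromosome 5 from 85700101 to 85774105; positions are those of the deposited table, and no source used here names their build.

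IGF1R, the signalling receptor, did not pass, with a narrow interval around no change. It stood at 87.5, 72.5 and 90.0 CPM in the E85 libraries, against 74.2, 81.2 and 87.2 CPM in the E45 libraries. The highest and the lowest values of all 6 libraries were both at E85, in replicates 3 and 2. The log2 fold change was 0.04 with a 95% interval of -0.27 to 0.36 (adjusted p = 0.853 by edgeR), which allows 0.83 to 1.28 times the E45 level. Its row spans chromosome 1 from 153514790 to 153853782.

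IGF2R, the clearing receptor, was higher in every E85 library than in every E45 library. Its levels were 213, 221 and 263 CPM at E85, against 167, 182 and 195 CPM at E45. The gap between the nearest libraries, E85 replicate 1 and E45 replicate 3, was smaller than the spread within E85. Its log2 fold change was 0.35 with an SE of 0.13 and a 95% interval of 0.04 to 0.67, and the gene did not pass over all genes (unadjusted p = 0.0330, adjusted p = 0.140 by edgeR). DESeq2 on the same counts put it at an adjusted p of 0.0424, in a fit that called 23.3% of the genes given an adjusted p. On deposited FPKM, IGF2R exceeded IGF1R by 3.63, 4.55 and 4.36 times in the E85 libraries and by 3.36, 3.36 and 3.35 times in the E45 libraries. This ratio was nearly constant over the E45 libraries and higher in each E85 library. IGF2R lies on chromosome 1 at 9166935 to 9271240.

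IGFBP7, a secreted protein of vessel walls and basement membranes that binds IGFs weakly and is also known as IGFBP-related protein 1, rose at E85. It had 5429, 4446 and 4779 counts in the E85 libraries, against 3031, 2802 and 3283 counts at E45. Normalised, these were 420, 296 and 315 CPM at E85, against 186, 202 and 215 CPM at E45. Every E85 library was above every E45 library, with E85 replicate 1 well above the other E85 libraries. The rise was 1.71-fold (log2 fold change 0.78, SE 0.16, 95% interval 0.38 to 1.17, adjusted p = 0.0440 by edgeR). The call held without E85 replicate 2 (log2 fold change 0.87, adjusted p = 0.0111 by edgeR), in a fit that called 22.3% of all genes tested. It was lost without each of the other 5 libraries, with log2 fold changes of 0.58 to 0.84 and adjusted p from 0.0882 to 0.182 by edgeR. Those 5 fits called only 0 to 118 genes among all genes. IGFBP7 is annotated on chromosome 8 at 59064675 to 59139438.

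Endothelial markers moved with IGFBP7 between the ages. Of 8 such markers 7 had a row, 5 of the 7 tested rose, none fell, and none was at 0 in any library. Over all genes, 3.90% were called higher and 2.66% lower. Their summed level was 1704, 1139 and 1263 CPM in the E85 libraries, against 525, 433 and 660 CPM in the E45 libraries. As for IGFBP7, the highest E85 sum was in replicate 1, the lowest E85 sum in replicate 2 and the highest E45 sum in replicate 3. The lowest E45 sum was in replicate 2, unlike IGFBP7, which was lowest in replicate 1. Each of the 7 endothelial markers was highest at E85 in replicate 1. VWF (115, 105 and 83.1 CPM) and EGFL7 (351, 290 and 248 CPM) were lowest at E85 in replicate 3, the others in replicate 2. EGFL7 alone was not highest at E45 in replicate 3 (171, 180 and 161 CPM). Of 8 macrophage markers all had a row, 4 of the 7 tested rose and none fell. Their summed level was 358, 798 and 275 CPM at E85, against 79.4, 152 and 121 CPM at E45, with CD163 at 0 in E85 replicates 1 and 3 and in E45 replicate 3. The list was not uniform within E85. CSF1R (65.6, 312 and 74.4 CPM), CD68 (77.2, 293 and 75.2 CPM) and MSR1 were highest in replicate 2. By contrast MRC1, C1QA (68.2, 55.4 and 37.3 CPM), C1QB and C1QC (98.9, 89.5 and 56.2 CPM) were highest in replicate 1, as IGFBP7 was, and lowest in replicate 3. Of 7 mural markers, for the outer cells of vessel walls, 2 rose and 1 fell, and their summed levels overlapped between the ages. Genes called higher were also found in the erythroid (2 of 4 tested), adipocyte (1 of 2), fibroblast and tendon (1 of 10) and muscle fibre (1 of 11) lists. None of 8 tested osteoclast markers was called, although their median log2 fold change was 3.47. Their summed level was 1874, 13384 and 2298 CPM at E85, against 287, 1289 and 371 CPM at E45, with OCSTAMP at 0 in E45 replicate 1. The part of any of these lists in the rise of IGFBP7 was not tested.

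IGFBP2, a binding protein abundant in fetal tissues and fetal serum, fell at E85. It had 714, 835 and 741 counts in the E85 libraries, against 1568, 1024 and 1803 counts at E45. Normalised, these were 55.2, 55.7 and 48.9 CPM at E85, against 96.0, 73.9 and 118 CPM at E45. The E85 libraries lay close together, with a coefficient of variation of 7.14%, whereas the E45 libraries varied by 23.0% and all stood above them. The mean at E45 was 1.80 times that at E85 (log2 fold change -0.85, SE 0.18, 95% interval -1.29 to -0.41, adjusted p = 0.0449 by edgeR). The call held without E85 replicate 2 (log2 fold change -0.89, adjusted p = 0.0281 by edgeR), in a fit that called 22.3% of all genes tested. It was lost without each of the other 5 libraries, with log2 fold changes of -1.01 to -0.68 and adjusted p from 0.0841 to 0.165 by edgeR. Those 5 fits called only 0 to 118 genes among all genes. The IGFBP2 row lies on an unplaced scaffold at 46034 to 68435. In the RefSeq gene table of Sscrofa11.1, which is used here for gene order only, IGFBP2 and IGFBP5 are direct neighbours with 0 annotated genes between them; the difference between their changes was not tested.

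Chondrocyte and cell cycle markers also were lower at E85, as IGFBP2 was. Of 12 chondrocyte markers 10 had a row, 2 of the 10 tested fell and none rose, and none was at 0 in any library. Over all genes, 2.66% were called lower and 3.90% higher. Their summed level was 957, 4683 and 1893 CPM in the E85 libraries, against 15072, 13742 and 11893 CPM at E45. The order within an age was not that of IGFBP2: E45 replicate 3 had the lowest chondrocyte sum and the highest IGFBP2, and IGFBP2 in E85 replicate 2 was within 1 CPM of replicate 1 although its chondrocyte sum was several times larger. The 6 cell cycle markers, of which 4 fell and none rose, summed to 269, 384 and 268 CPM at E85, against 604, 592 and 671 CPM at E45. Here the highest E45 sum and the lowest were in the same libraries as for IGFBP2. Of the cell cycle markers TYMS alone was not highest at E45 in replicate 3. It was lowest there (25.5 CPM) and highest in replicate 1 (29.1 CPM). The highest E85 sum was in replicate 2, as for IGFBP2, but the spacing differed. That sum stood well above those of replicates 1 and 3, whereas IGFBP2 in replicate 2 was within 1 CPM of replicate 1. Genes called lower were also found in the osteocyte (1 of 3 tested) and mural (1 of 7) lists, whose sums overlapped between the ages. The part of any of these lists in the fall of IGFBP2 was not tested.

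**Figure D2:**
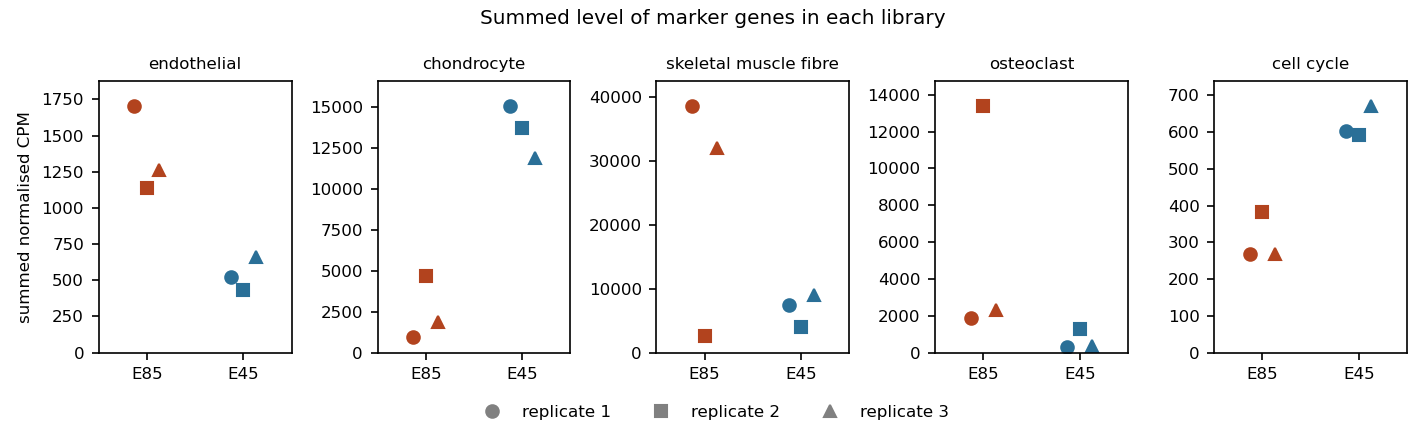
Summed normalised CPM (y axes, starting at 0) of 5 marker lists in each library, E85 left of E45, with symbols for the replicate number. Endothelial sums were 1139 to 1704 CPM at E85, above 433 to 660 CPM at E45, chondrocyte and cell cycle sums were lower at E85, and E85 replicate 2 differed from the other E85 libraries in muscle (2547 CPM) and osteoclast (13384 CPM) sums.

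IGFBP4, which restrains IGF action until the protease PAPPA cleaves it, was high in 1 library of each age. It stood at 247, 322 and 225 CPM in the E85 libraries, against 204, 206 and 363 CPM in the E45 libraries. E45 replicate 3 was the highest of all 6 and E85 replicate 2 the next, and the other E45 libraries were the lowest. The log2 fold change was 0.04 with a 95% interval of -0.60 to 0.67 (adjusted p = 0.942 by edgeR), and its sign changed with the scaling, to -0.03 with library totals alone. Without E45 replicate 3 the log2 fold change was 0.37 (adjusted p = 0.288). IGFBP4 lies on chromosome 12 at 22275243 to 22290067.

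IGFBP5, a binding protein plentiful in bone that attaches to the mineral hydroxyapatite, varied within E85 more than between the ages. It stood at 122, 54.2 and 104 CPM in the E85 libraries, against 77.2, 130 and 108 CPM in the E45 libraries. E85 replicate 2 was the lowest of all 6 libraries, and the others overlapped. Its log2 fold change was -0.17 with a 95% interval of -0.96 to 0.63 (adjusted p = 0.768 by edgeR), and 0.11 without E85 replicate 2 (adjusted p = 0.738). Its row lies on chromosome 15 at 131680310 to 131684630.

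IGFBP3, the main carrier of IGFs in adult serum, was the scarcest of the binding protein transcripts. It had 150, 123 and 81 counts in the E85 libraries, against 151, 90 and 291 counts in the E45 libraries. These were 11.6, 8.20 and 5.34 CPM at E85, against 9.24, 6.49 and 19 CPM at E45. E45 replicate 3 stood apart from the other 5 libraries, whose ages overlapped. The fitted log2 fold change was -0.47 with a 95% interval of -1.57 to 0.63 (adjusted p = 0.525 by edgeR) and 0.08 without E45 replicate 3 (adjusted p = 0.907), so its direction rests on that library. IGFBP3 lies on chromosome 18 at 54851504 to 54856012, and IGFBP1 begins 5833 bases beyond its end. IGFBP1, a liver and decidua binding protein that was no part of the list of 10 names, had 1 count in E45 replicate 3 and 0 in the other libraries; a count of 0 allows up to 0.239 CPM in the shallowest library, for counting error only.

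IGFBP6, which prefers IGF2 over IGF1, did not pass. It stood at 73.4, 81.5 and 66.0 CPM in the E85 libraries, against 59.5, 77.2 and 78.1 CPM in the E45 libraries, with the ages overlapping. The log2 fold change was 0.04 with a 95% interval of -0.32 to 0.40 (adjusted p = 0.883 by edgeR), which allows 0.80 to 1.32 times the E45 level, and it was -0.01 with library totals alone. IGFBP6 lies on chromosome 5 at 18768002 to 18772057.

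**Figure D3:**
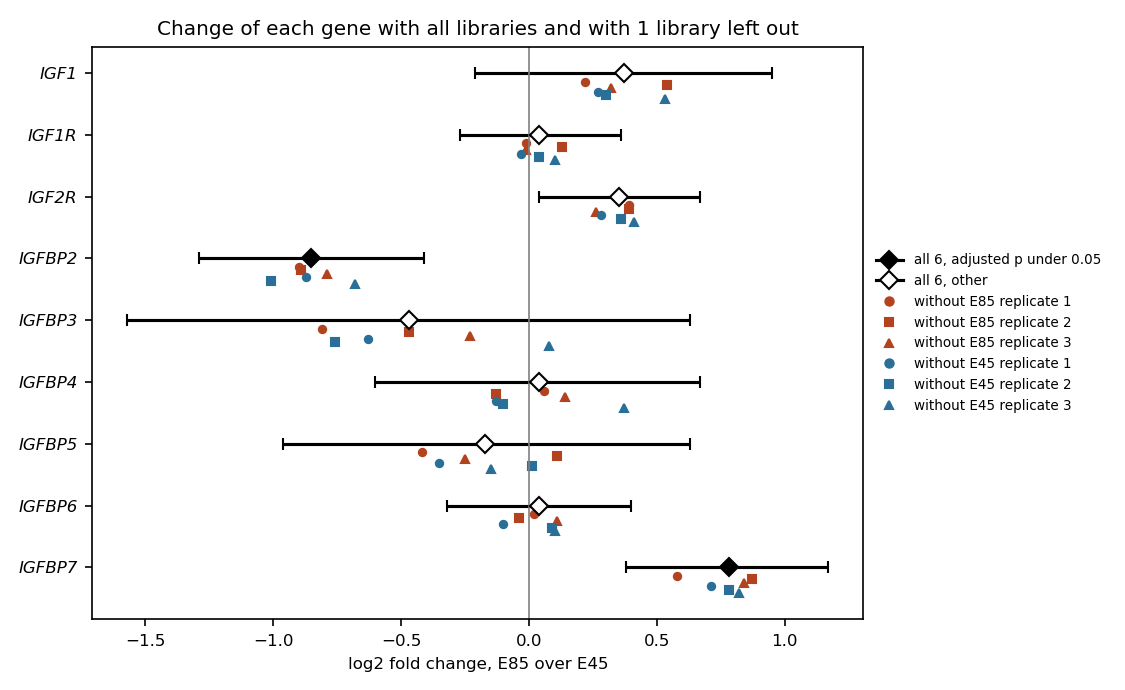
Log2 fold change of each gene, E85 over E45, with all 6 libraries (diamonds, filled where the adjusted p was under 0.05; bars are 95% intervals) and with 1 library left out (small symbols, red for an E85 and blue for an E45 library). IGFBP2 stayed between -1.01 and -0.68 and IGFBP7 between 0.58 and 0.87 in all 6 such fits, whereas IGF1R, IGFBP3, IGFBP4, IGFBP5 and IGFBP6 had values on both sides of 0.

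Compared per length, the binding proteins other than IGFBP3 averaged more than IGF1 and both receptors at either age. In the E85 libraries the order of mean FPKM was IGFBP7 (302 ± 72.2), IGFBP4 (122 ± 18.4), IGFBP2 (82.5 ± 6.66), IGFBP6 (60.4 ± 5.05), IGFBP5 (29.2 ± 12.1), IGF2R (24.1 ± 2.99), IGFBP3 (10.3 ± 4.18), IGF1R (5.82 ± 0.893) and IGF1 (2.11 ± 0.560) (SD, n = 3). In that order IGFBP5 and IGF2R had overlapping ranges and no other neighbours did. At E45 the order was IGFBP7 (180 ± 22.0), IGFBP2 (154 ± 43.7), IGFBP4 (124 ± 51.7), IGFBP6 (60.4 ± 10.7), IGFBP5 (33.1 ± 8.18), IGF2R (19.4 ± 2.48), IGFBP3 (14.8 ± 9.29), IGF1R (5.77 ± 0.752) and IGF1 (1.66 ± 0.412). There the ranges of IGFBP7, IGFBP2 and IGFBP4 ran into each other, as did those of IGF2R and IGFBP3. Among rows with a count in any library, 99.0% at E85 and 98.1% at E45 had a lower mean FPKM than IGFBP7, and 38.3% at E85 and 37.1% at E45 had a lower one than IGF1. Read as lengths, the factors behind the deposited FPKM are 636 bases for IGFBP2, 808 for IGFBP3, 1128 for IGFBP7 and 14174 for IGF1R, and the order depends on them.

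The summed FPKM of the 6 binding proteins was 710, 558 and 552 in the E85 libraries, against 490, 488 and 719 in the E45 libraries, so the totals overlapped. Its make-up differed. IGFBP7 took 54.0%, 44.0% and 50.2% of the sum at E85, against 33.1%, 35.5% and 28.5% at E45. IGFBP2 took 12.6%, 14.7% and 13.8% at E85, against 30.4%, 23.0% and 27.7% at E45. For both genes each E85 share lay outside the E45 range. The FPKM of IGFBP7 was 4.29, 3.00 and 3.64 times that of IGFBP2 in the E85 libraries and 1.09, 1.54 and 1.03 times at E45. IGFBP4 held 16.8% to 25.3% at E85 and 19.1% to 25.5% at E45, and IGFBP6 8.89% to 11.4% and 9.74% to 12.8%, with overlap. IGFBP7 was the most abundant of the 6 in each library. The shares restate the rise and fall above on a common scale and were not tested.

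**Figure D4:**
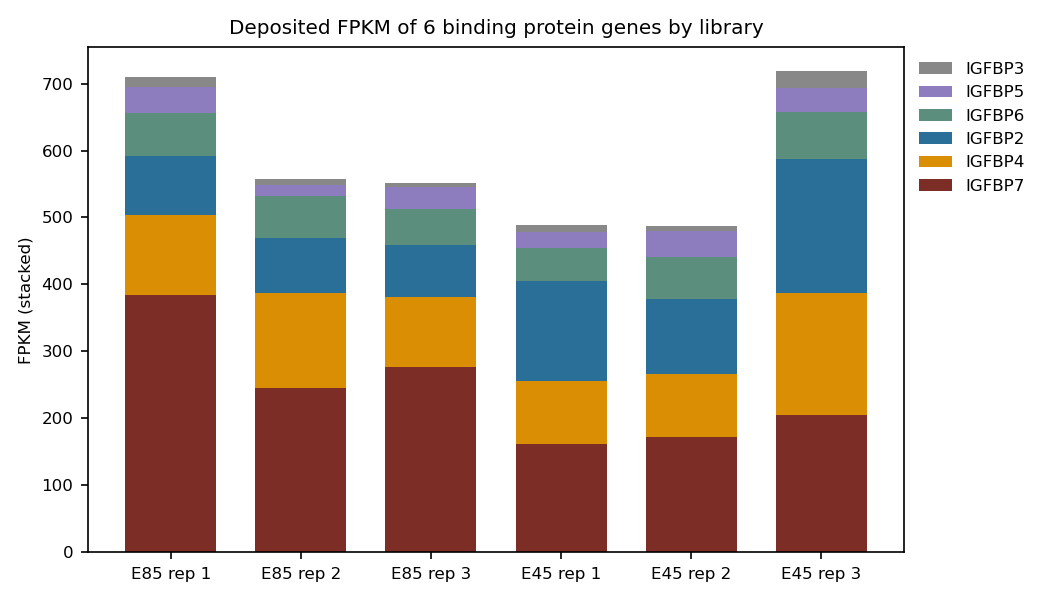
Deposited FPKM of the 6 binding protein genes stacked for each library, E85 libraries on the left. The totals of 552 to 710 at E85 overlap those of 488 to 719 at E45, while the lowest segment, IGFBP7, is larger in each E85 bar and the IGFBP2 segment is smaller.

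In the table's Gene Ontology annotation, 7 of the 9 genes (IGF1R and the 6 binding proteins) carry the term insulin-like growth factor binding, held by 25 rows in all. The terms for binding IGF I and IGF II are carried by 5 binding proteins and not by IGFBP7. The genes whose pattern over the 6 libraries was most like a given gene were sought among 8274 other named genes with a mean of at least 10 CPM, by Pearson's r of log2 CPM. For IGFBP7 these were IRF2 (r = 0.995), RADIL (r = 0.994) and ARHGEF15 (r = 0.992). ARHGEF15 stood at 60.8, 34.7 and 41.9 CPM in the E85 libraries, against 16.2, 16.2 and 21.0 CPM at E45. For IGFBP2 they were PTPRA (r = 0.993), DBN1 (r = 0.992) and XRCC5 (r = 0.985). DBN1 stood at 46.2, 45.9 and 45.1 CPM at E85, against 63.2, 57.1 and 73.8 CPM at E45. For IGF1 they were FAM13C (r = 0.998), ARL6IP5 (r = 0.994) and ATOH8 (r = 0.992). FAM13C was at 20.1, 7.40 and 15.3 CPM at E85, against 6, 5.99 and 11.4 CPM at E45, and so shared with IGF1 the low value of E85 replicate 2 and the high value of E45 replicate 3. With 6 libraries that share ages and tissue makeup, 173, 49 and 45 genes had an r over 0.95 with IGFBP7, IGFBP2 and IGF1, so these likenesses are a description.

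Around these genes, 91 others were grouped in 7 lists by role, of which 75 could be tested and 12 had no row. Not all belong to the IGF pathway, as the lists include CCN genes and other imprinted growth genes, and the imprinted list held 2 of the calls below. Of the 75, 4 rose and 3 fell, or 9.33% beside the 6.56% of all genes, and the median log2 fold change was 0.23, beside 0.02. Each of these 7 calls held without E85 replicate 2, where the lists held 22 calls and 22.3% of all genes tested were called. Only 1 (MEST) held without E85 replicate 3, and none held without E85 replicate 1 or without any E45 library. Those other fits called 0 to 118 genes among all genes.

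Genes of the growth hormone axis, which controls IGF1 production after birth, had positive log2 fold changes in 6 of 6 members tested. Their median was 0.98, beside 0.02 for all genes tested. Of the 6, 2 rose, or 33.3%, beside the 3.90% of all genes called higher. A list of 6 genes is too small to set it apart. CISH, a feedback inhibitor of cytokine receptor signalling that growth hormone induces through STAT5, rose 3.78-fold. It stood at 14.3, 6.60 and 16.5 CPM in the E85 libraries, against 3.12, 3.68 and 3.07 CPM at E45 (log2 fold change 1.92, SE 0.36, adjusted p = 0.0354 by edgeR). SOCS2, an inhibitor of growth hormone receptor signalling, rose 2.36-fold. It stood at 66.3, 34.3 and 47.1 CPM at E85, against 20.7, 19 and 22.8 CPM at E45 (log2 fold change 1.24, SE 0.24, adjusted p = 0.0383). The SOCS2 call was lost with library totals alone (adjusted p = 0.0522 by edgeR) and with limma-trend on log2(FPKM + 1) (0.0564) or log2(FPKM + 0.1) (0.0545). That of CISH was lost with limma-voom (adjusted p = 0.0568) and with the replicate block (0.0593 by edgeR). Both calls held without E85 replicate 2, in a fit that called 22.3% of all genes tested. Both were lost without each of the other 5 libraries, at adjusted p from 0.0824 to 0.166 by edgeR, in fits that called 0 to 118 genes among all genes. The receptor GHR, named after its values were seen, was at 36.7, 18.4 and 39.2 CPM at E85, against 13.8, 14.7 and 17.9 CPM at E45 and did not pass (adjusted p = 0.0810). In these 3 of the 6 genes tested the ages did not overlap, as in 35.0% of all genes, and E85 replicate 2 was the lowest of its age. In STAT5A, JAK2 and SOCS3 the ages overlapped, and E85 replicate 2 was the lowest of its age for STAT5A (59.6 CPM) but the highest for JAK2 (12.5 CPM) and SOCS3 (8.60 CPM). Replicate 2 also had the lowest muscle marker sum at E85 (2547 CPM, against 38608 and 32080 CPM in replicates 1 and 3), below the E45 range of 4033 to 9093 CPM. Of the 15 muscle fibre markers 12 had a row, 1 of 11 tested rose and none fell; TTN had 0 counts in the E45 libraries and the others were detected in each library. Their part in these rises was not tested.

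Among 9 tested proteases of the binding proteins and their regulators, 1 rose, or 11.1%, beside the 3.90% of all genes called higher. ADAM12, a metalloprotease that in humans cleaves IGFBP3 and IGFBP5, rose 2.35-fold. It stood at 34.4, 43.5 and 34.7 CPM in the E85 libraries, against 14.4, 14.8 and 18.7 CPM at E45 (log2 fold change 1.23, SE 0.17, adjusted p = 0.0200 by edgeR). The ages were far apart relative to their spread. HTRA1, a secreted serine protease with the highest CPM of the list, was at 328, 530 and 489 CPM at E85, against 719, 1106 and 656 CPM at E45, and did not pass (log2 fold change -0.88, SE 0.27, adjusted p = 0.0925). PRSS23, another serine protease, was at 129 ± 6.11 CPM at E85 and 133 ± 35.3 CPM at E45 (SD, n = 3 each; adjusted p = 0.914 by edgeR). PAPPA, the protease of IGFBP4, and its inhibitors STC1 and STC2 did not pass either.

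Downstream of IGF1R, 1 of 36 tested adaptors, kinases and targets rose and none fell, or 2.78% of the list, beside the 3.90% of all genes called higher. This was FOXO1, a transcription factor that AKT keeps out of the nucleus, at 89.8, 87.9 and 70.2 CPM in the E85 libraries, against 43.4, 35.0 and 49.1 CPM at E45. Its ages did not overlap, and it rose 1.94-fold (log2 fold change 0.96, SE 0.17, adjusted p = 0.0316 by edgeR). The members with the highest CPM did not pass: INPPL1, a phosphatase of the PI3K product, was at 589 ± 36.2 CPM at E85 and 670 ± 88.4 CPM at E45 (SD, n = 3 each; adjusted p = 0.435 by edgeR). TSC2, an inhibitor of mTOR complex 1, was at 409 ± 29.4 CPM at E85 and 458 ± 85.4 CPM at E45 (adjusted p = 0.547 by edgeR). At an unadjusted p under 0.05, 9 of the 36 were higher and 4 lower, beside 15.8% and 13.3% of all genes.

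Of 6 tested regulators of the IGF2 gene or its mRNA, 1 fell, or 16.7%, beside the 2.66% of all genes called lower. IGF2BP1, a fetal protein that binds IGF2 mRNA and whose row was named through the ID table, was at 5.49, 9.73 and 7.91 CPM in the E85 libraries, against 17.6, 14.4 and 16.4 CPM at E45. The ages were separate, and the E45 mean was 2.09 times the E85 mean (log2 fold change -1.06, SE 0.23, adjusted p = 0.0462 by edgeR). IGF2BP2 was at 83.4 ± 9.18 CPM at E85 and 112 ± 15.5 CPM at E45 (SD, n = 3 each; adjusted p = 0.123 by edgeR), and CTCF, which binds the control region of the IGF2 locus, at 21.7 ± 1.81 and 21.3 ± 1.27 CPM at E85 and E45 (adjusted p = 0.916 by edgeR). Among 6 tested imprinted growth genes, NNAT and MEST fell and none rose, or 33.3%, beside the same 2.66% of all genes. Lists of 6 genes are too small to set apart. NNAT, which encodes neuronatin, was at 90.1, 58.1 and 84.6 CPM at E85, against 266, 280 and 211 CPM at E45 (log2 fold change -1.70, SE 0.21, adjusted p = 0.0181 by edgeR). MEST, named mesoderm-specific transcript, was at 82.4, 86.5 and 128 CPM at E85, against 251, 313 and 259 CPM at E45 (log2 fold change -1.47, SE 0.20, adjusted p = 0.0211). The lowest E45 library was well above the highest E85 library in both.

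The remaining lists held no call by edgeR. Of 8 CCN and other IGFBP-related genes, 2 were higher and none lower at an unadjusted p under 0.05, beside 15.8% and 13.3% of all genes. CTGF, a matrix-associated growth regulator, was at 118, 284 and 110 CPM in the E85 libraries, against 115, 131 and 104 CPM at E45, with E85 replicate 2 alone above the rest (adjusted p = 0.375). NOV was at 75.1 ± 41.0 CPM at E85 and 111 ± 35.8 CPM at E45 (SD, n = 3 each; adjusted p = 0.461 by edgeR). Of 4 tested other receptors and carriers, none passed and none had an unadjusted p under 0.05. The insulin receptor INSR was at 102 ± 3.76 CPM at E85 and 91.6 ± 20.6 CPM at E45 (adjusted p = 0.576 by edgeR), and IGFALS, the acid-labile subunit that joins IGF and IGFBP3 in serum, at 24.2 ± 4.07 and 22.1 ± 3.12 CPM (adjusted p = 0.654 by edgeR).

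**Figure D5:**
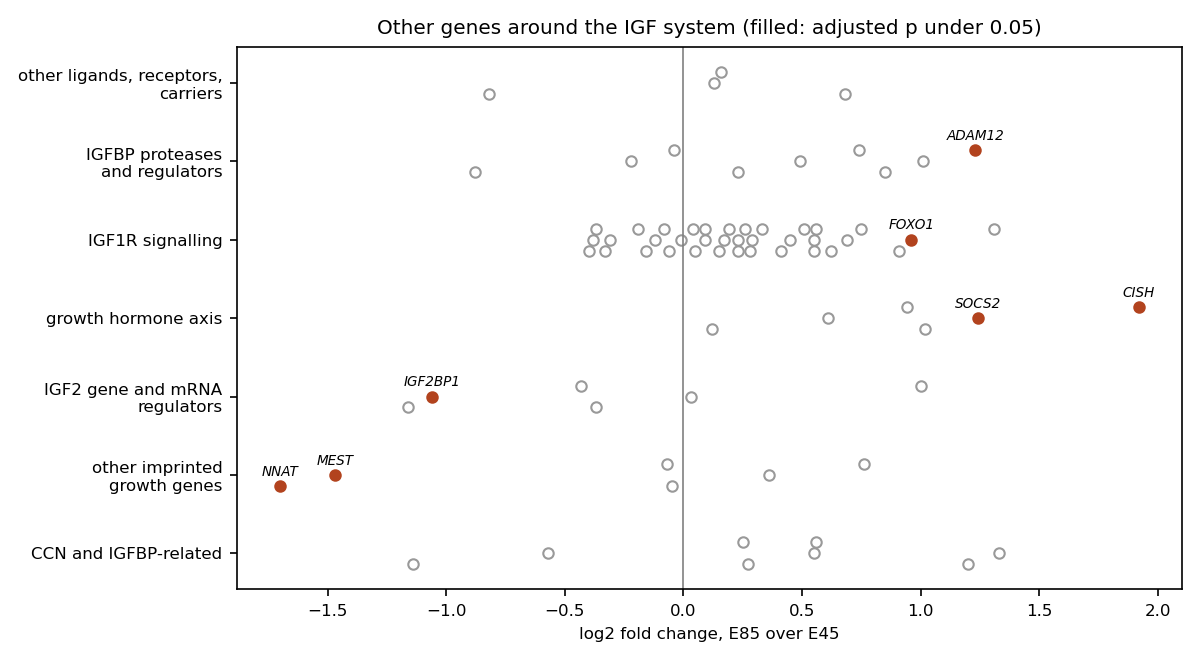
Log2 fold change, E85 over E45, of each tested gene in 7 lists around the IGF system, with list names on the y axis and points offset vertically for legibility; filled and named points had an adjusted p under 0.05. Calls lie to the right for the growth hormone axis (CISH and SOCS2), ADAM12 and FOXO1, and to the left for IGF2BP1, MEST and NNAT. The 36 IGF1R signalling genes run from -0.40 (PIK3R2) to 1.31 (PIK3CB, not called), with a median of 0.21.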

How the data were processed

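RNA was profiled from condyles of miniature pig embryos, 3 libraries at E85 and 3 at E45. Libraries were made from total RNA of ground tissue after bead removal of ribosomal RNA, with degradation of the second strand, per the labels' protocols. The submitters' processing notes name HISAT2; no source used here names the counter, its strand setting, the build or the annotation. The authors deposited whole-number read counts per gene and FPKM, per the file headers. For 10748 genes with at least 50 counts in every library, the deposited FPKM equalled the count over the library total and a factor per gene, with a largest relative deviation of 0.00179%; that factor is given as the implied length. Symbols came from the table (16162 rows) or from an ID table (1774 rows).

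The test was edgeR 4.0.16 under R 4.3.3 (filterByExpr with a minimum count of 10, TMM, robust quasi-likelihood F test, age as the only factor), with adjustment over all 15022 genes. SE is the log2 fold change divided by the square root of F. The procedure was tested on simulated data. DESeq2 1.42.0 and limma 3.58.1 were alternatives, limma also on log2(FPKM + 1) and log2(FPKM + 0.1). Total counts of 12546729 to 16559616 make 3 counts worth at most 0.239 CPM. No library pair was a duplicate (chi-square per degree of freedom of 20.2 or more).

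The genes, lists and tests were chosen with earlier results of these data known. Named are all members; in each list up to 6 called genes of at least 1 CPM by size of change plus the 2 genes of highest mean CPM in any list with fewer than 2 calls; and the 3 genes most alike to IGF1 and to each called member. Sequences are not shown.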

Additional observations from a re-analysis of the deposited data

How the results depend on the processing

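IGFBP2 kept a negative and IGFBP7 a positive log2 fold change in every alternative run, from -1.01 to -0.68 and from 0.58 to 0.87, but their calls lie close to the threshold. Of the 2 calls among the 9 genes, 1 was left with limma-voom (IGFBP2 at an adjusted p of 0.0505) and 0 with library totals alone (IGFBP2 0.0523, IGFBP7 0.0628) and with limma-trend on log2(FPKM + 1) or log2(FPKM + 0.1); leaving out 1 library each left 0 to 2. Over all genes, the 986 calls became 3834 with DESeq2 and 0 to 3412 when 1 library was left out (4, 0 and 20 without E45 replicates 1, 2 and 3; 16, 3412 and 118 without E85 replicates 1, 2 and 3). In the fit with 0 calls, 3056 genes had an unadjusted p under 0.05. With library totals alone 437 genes were higher and 598 lower, against 586 and 400. The 7 calls in the pathway lists became 24 with DESeq2 and 0 to 22 when 1 library was left out.

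The labels do not say whether equal replicate numbers mark pairs, and 3 libraries per age cannot settle it. Deviations from the age means correlated at 0.013, 0.250 and 0.040 for numbers 1, 2 and 3. Number 2 at E85 correlated most with number 2 at E45 (against -0.043 and -0.215 with numbers 1 and 3). Numbers 1 and 3 at E85 correlated most with another number at E45 (0.261 with number 3 and 0.051 with number 1). With the replicate block 682 genes were called, 0 of the 9 (IGFBP2 at an adjusted p of 0.0732, IGFBP7 at 0.0719) and 4 in the pathway lists (CISH was lost at 0.0593, FOXO1 at 0.0575 and IGF2BP1 at 0.0743).

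Signs changed for genes near 0 that were not called: IGFBP4 to -0.03 and IGFBP6 to -0.01 with library totals alone; CTCF to -0.0022 with upper-quartile scaling and -0.01 with library totals and with limma-trend. With 1 library left out the ranges were -0.03 to 0.13 for IGF1R, -0.81 to 0.08 for IGFBP3, -0.13 to 0.37 for IGFBP4, -0.42 to 0.11 for IGFBP5, -0.10 to 0.11 for IGFBP6, -0.18 to 0.20 for PRSS23, -0.04 to 0.07 for CTCF and -0.03 to 0.79 for CTGF. The causes were not tested. IGF1 and IGFBP3 rest on 81 to 291 counts per library.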

Other observations

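Among the E45 libraries, replicate 3 had the highest normalised level for 8 of the 9 IGF system genes, the exception being IGFBP5, whereas it was the highest E45 library for 37.7% of all genes tested. E45 replicate 1 was the lowest for 7 of the 9 and the highest for none, beside 28.4% and 28.0% of all genes. Among the E85 libraries the highest values were spread over replicates 1, 2 and 3 with 4, 3 and 2 genes, beside 31.3%, 44.4% and 24.4% of all genes.

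A second identifier carries the symbol IGF1R in the ID table; its row in the deposited table is unnamed and has 0 counts in all 6 libraries, so IGF1R reads were not seen to be split between them.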
